A study of Mus musculus with 4 samples.

Results

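Receptors of the Il6-type cytokines and of the beta-common family were followed in mouse liver with and without Tm7sf2, together with the prolactin receptor, the interleukin-1 receptor, the transcription factor Stat3 and its inhibitor Socs3. The 10 genes (Lifr, Il6st, Il6ra, Osmr, Prlr, Csf2rb, Csf2rb2, Il1r1, Stat3 and Socs3) were found by symbol among the 19504 gene names on the array, and all 29 of their probe sets, of 45037 tested, are described. The group was selected on KO minus WT differences already seen in these arrays, so the members' differences are given as a description and without a test. There were 2 arrays (Affymetrix MOE430 v2) of WT and 2 of Tm7sf2-KO liver RNA, from male mice aged 6 weeks, with the knockout backcrossed to the C57Bl/6 strain of the WT. The knockout was carried by the whole animal rather than by hepatocytes alone. The labels do not say whether duplicate arrays came from separate animals, so the spread between them may be technical.

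The labels were first set against the targeted gene. Tm7sf2, which encodes a sterol reductase, read 10.25 and 10.27 in WT and 7.47 and 7.55 in KO (log2 signal) at probe set 1460684_at. Its other probe set, 1454825_at, read 7.46 and 7.49 in WT and 7.50 and 7.54 in KO and did not follow the labels. All 10 hepatocyte markers on a list for the tissue, among them Alb and Ttr, lay above a dim threshold of 6.74, the 95th percentile of 89 probe sets of chemosensory receptor genes that liver does not use. For RNA quality, control probe sets at the 3' and 5' ends of Actb, Gapdh, Pcx and Tfrc were compared. Their gap was wider in KO by 0.18, 0.12 and 0.33 for the first 3 genes and narrower by 0.15 for Tfrc (KO minus WT -0.15), and its part in any result was not tested.

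Cytokines of the Il6 family signal through a shared receptor subunit, gp130, which is encoded by Il6st. A ligand-binding chain such as the Il6 receptor (Il6ra), the leukaemia inhibitory factor receptor (Lifr) or the oncostatin M receptor (Osmr) joins gp130 in the complex. Jak kinases bound to the receptors then phosphorylate Stat3, and Stat3 switches on acute phase genes in hepatocytes as well as Socs3, which shuts the receptor down. The prolactin receptor (Prlr) is a related receptor that works mainly through Stat5. Csf2rb encodes the common beta chain shared by the receptors for Csf2, Il3 and Il5, mainly in myeloid cells, and Csf2rb2 encodes a closely similar chain of the mouse that serves Il3. Il1r1, the signalling receptor for interleukin-1, acts mainly through NF-kB.

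Stat factors bind the palindrome TTCNNNGAA, so the bases before the annotated starts of the members were searched for it. RefSeq (GRCm38.p6) gave 13 windows of 250 bases upstream for 9 of the members. The motif is its own reverse complement, so a search covers both strands. It was present in 3 of the 13 windows and in 7.02% of all 32851 windows. Csf2rb was the member without a window. The windows that held the motif are printed 5' to 3' with the matching bases in capitals. Any link of the motif to the KO minus WT values was not tested.
Prlr (chr15:10223656-10223905, plus strand): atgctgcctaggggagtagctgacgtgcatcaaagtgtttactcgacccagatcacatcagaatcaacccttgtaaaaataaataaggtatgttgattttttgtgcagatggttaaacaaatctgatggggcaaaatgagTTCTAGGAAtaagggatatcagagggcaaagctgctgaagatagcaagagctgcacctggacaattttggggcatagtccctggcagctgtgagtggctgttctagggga
Csf2rb2 (chr15:78305722-78305971, minus strand): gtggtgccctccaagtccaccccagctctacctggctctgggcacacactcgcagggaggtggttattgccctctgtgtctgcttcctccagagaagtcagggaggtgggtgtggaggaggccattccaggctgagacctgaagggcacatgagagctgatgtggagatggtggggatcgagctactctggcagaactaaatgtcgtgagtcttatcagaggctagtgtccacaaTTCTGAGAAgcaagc
Socs3 (chr11:117969367-117969616, minus strand): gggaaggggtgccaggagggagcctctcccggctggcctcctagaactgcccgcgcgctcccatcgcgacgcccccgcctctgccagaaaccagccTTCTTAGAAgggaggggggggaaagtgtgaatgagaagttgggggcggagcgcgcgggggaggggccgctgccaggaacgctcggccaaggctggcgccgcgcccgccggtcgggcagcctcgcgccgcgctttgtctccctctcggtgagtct
The Prlr match, TTCTAGGAA, began at position -110 of 1 of 3 annotated Prlr starts, where -1 is the last base before the start. The Csf2rb2 match, TTCTGAGAA, began at -15 and the Socs3 match, TTCTTAGAA, at -154. These are matches of letters and do not show that a factor binds. The windows of Lifr, Il6st, Il6ra, Osmr, Il1r1 and Stat3 held none.

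Among the members, Csf2rb2 and Lifr were lower and Prlr was higher in KO liver past the thresholds used for all genes, each at 1 of its probe sets. These thresholds were a limma adjusted p under 0.05 over all probe sets and an absolute log2 difference of at least 0.5. Of the 29 member probe sets 1 was higher and 2 were lower past both, where 0.38% of all probe sets were higher and 0.326% lower (0.706% together). The adjusted p alone was passed by 4, and by 1.25% of all. As the members were selected on this comparison, nothing is read from the excess. KO and WT arrays did not overlap at 14 of the 29, with KO lower at 11 and higher at 3, while 41.1% of all probe sets did not overlap (22.4% higher and 18.7% lower). All 14 were among the 24 above the dim threshold, and of all probe sets above it 49.7% did not overlap (23.2% lower). The median KO minus WT difference was -0.06 over the 29 and 0.01 over all probe sets. There were 5 dim probe sets (2 of Osmr, 2 of Prlr and 1 of Csf2rb2). Replicate arrays differed at the member probe sets by a median of 0.10 in WT and 0.09 in KO. Differences are relative to the bulk of genes, and centring on added control probe sets instead would lower each of them by 0.36. Without any 1 of the 4 arrays a group kept a single array, and limma then called neither a member nor the targeted gene Tm7sf2. Those fits are therefore read for differences only. These lay between -1.17 and -0.97 for Csf2rb2 1450200_s_at, -0.70 and -0.63 for Lifr 1425107_a_at, and 0.53 and 0.67 for Prlr 1421382_at. With each gene's probe sets averaged only Csf2rb2 (-0.53) of the 10 members was past both thresholds, with Lifr at -0.41 and Prlr at 0.18.

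**Figure D1:**
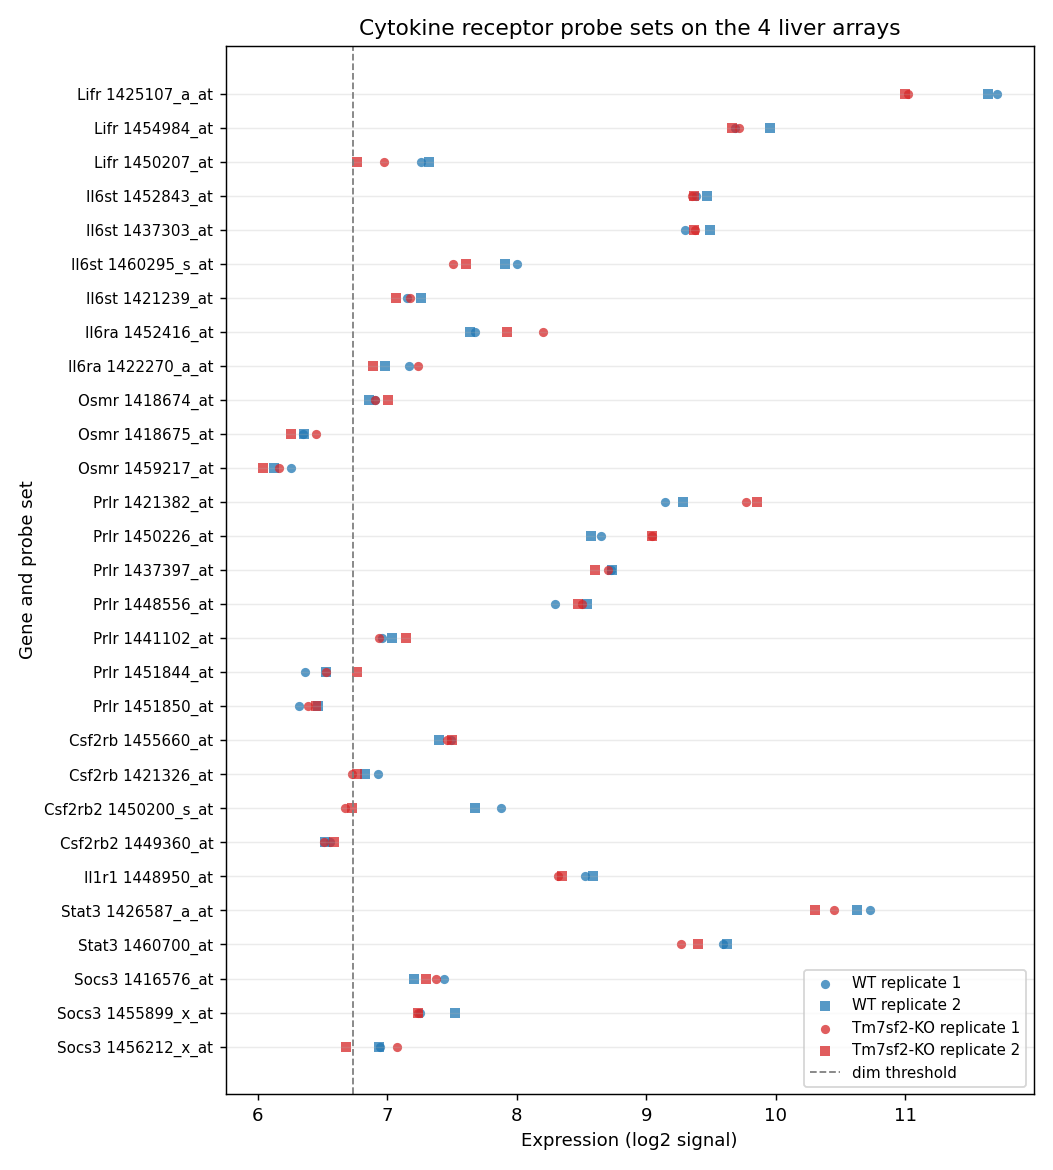
Expression (log2 signal, horizontal axis) at the 29 probe sets of the 10 genes, with 1 point per array (blue WT, red Tm7sf2-KO, circles replicate 1, squares replicate 2) and the dim threshold of 6.74 as a dashed line. WT and KO points stand farthest apart at Csf2rb2 1450200_s_at, Lifr 1425107_a_at and Prlr 1421382_at.

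Lifr, the receptor that leukaemia inhibitory factor binds before gp130 joins, was lower in KO by 1.58-fold at its brightest probe set. At 1425107_a_at it read 11.71 and 11.64 in WT and 11.02 and 11.00 in KO, a difference of -0.66 (SE 0.08). Both KO arrays lay below both WT arrays, and replicates differed by no more than 0.07. Lifr 1450207_at pointed the same way without passing the thresholds, at 7.26 and 7.32 in WT against 6.97 and 6.76 in KO (-0.42, SE 0.09). At 1454984_at Lifr read 9.69 and 9.96 in WT and 9.71 and 9.67 in KO (-0.13, SE 0.10). There the groups overlapped, the WT replicates were 0.27 apart, and the difference was 0.00 without WT replicate 2. All 3 Lifr values were negative, and KO lay below WT without overlap at 2 of them. Which transcript forms of Lifr each probe set reads was not examined.

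Il6st, the gp130 subunit itself, passed the thresholds at none of its 4 probe sets. Its 1460295_s_at read 8.001 and 7.90 in WT and 7.51 and 7.61 in KO (-0.39, SE 0.08), with no overlap of the groups. The suffix _s_at marks probes that match more than 1 transcript. The brightest, 1452843_at, read 9.39 and 9.47 in WT and 9.36 and 9.37 in KO (-0.06, SE 0.08), where KO was below WT by little. At 1437303_at and 1421239_at the differences were -0.02 and -0.08 (SE 0.09 and 0.08), and the groups overlapped.

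Il6ra, the chain that binds Il6, read 7.68 and 7.64 in WT and 8.20 and 7.92 in KO at 1452416_at (0.40, SE 0.10). KO was higher on both arrays there, although the KO replicates were 0.28 apart and the thresholds were not passed. At 1422270_a_at Il6ra read 7.17 and 6.98 in WT and 7.24 and 6.89 in KO (-0.01, SE 0.12), and the replicates of each genotype differed by more than the genotypes did.

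Osmr, which pairs with gp130 to bind oncostatin M, was close to the dim threshold or below it. Of its 3 probe sets 2 were dim, and the remaining one, 1418674_at, read 6.90 and 6.86 in WT and 6.90 and 7.00 in KO (0.07, SE 0.08). The differences over the 3 ran from -0.09 to 0.07, and the groups overlapped at each.

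Prlr had 7 probe sets, and they differed from each other. At 1421382_at it was higher in KO by 1.51-fold, with 9.14 and 9.29 in WT and 9.77 and 9.86 in KO (0.60, SE 0.09). Prlr 1450226_at read 8.65 and 8.58 in WT and 9.04 and 9.04 in KO (0.43, SE 0.08), which passed the adjusted p but not the fold threshold. KO arrays were above WT arrays at both. Against these, 1437397_at read 8.73 and 8.73 in WT and 8.71 and 8.60 in KO (-0.08, SE 0.08), with KO just below WT. Values at 1448556_at and 1441102_at were 0.07 and 0.04 (SE 0.10 and 0.09), and at the 2 dim probe sets 0.20 and 0.02, all with overlap. Mouse Prlr gives rise to a long form and to short forms with different 3' ends, and which form each probe set reads was not examined.

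Csf2rb2 was lower in KO at 1450200_s_at. It read 7.88 and 7.67 in WT and 6.67 and 6.73 in KO (measured difference -1.07, SE 0.09). Both KO arrays were under the dim threshold, and the probe set counted as above it through the WT arrays alone. The WT mean stood 2.05-fold above that threshold, a value given without its sampling error and so not a lower bound on the fall. The other Csf2rb2 probe set, 1449360_at, was dim in both genotypes, at 6.56 and 6.52 in WT against 6.51 and 6.59 in KO (0.01, SE 0.08). Csf2rb, the neighbouring gene, read 7.49 and 7.40 in WT and 7.46 and 7.50 in KO at 1455660_at (0.03, SE 0.08), where the groups overlapped. At 1421326_at Csf2rb read 6.92 and 6.83 in WT and 6.72 and 6.76 in KO (-0.13, SE 0.08), with KO below WT. The probes of 1450200_s_at match more than 1 transcript, and Csf2rb and Csf2rb2 are close copies, so that its signal may come from either. In bulk liver, fewer cells of a type and less RNA per cell cannot be told apart.

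Il1r1 had a single probe set, 1448950_at, which read 8.53 and 8.59 in WT and 8.32 and 8.35 in KO (-0.22, SE 0.08). The groups did not overlap and replicates differed by 0.06 in WT and 0.03 in KO, but the value did not pass the thresholds.

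**Figure D2:**
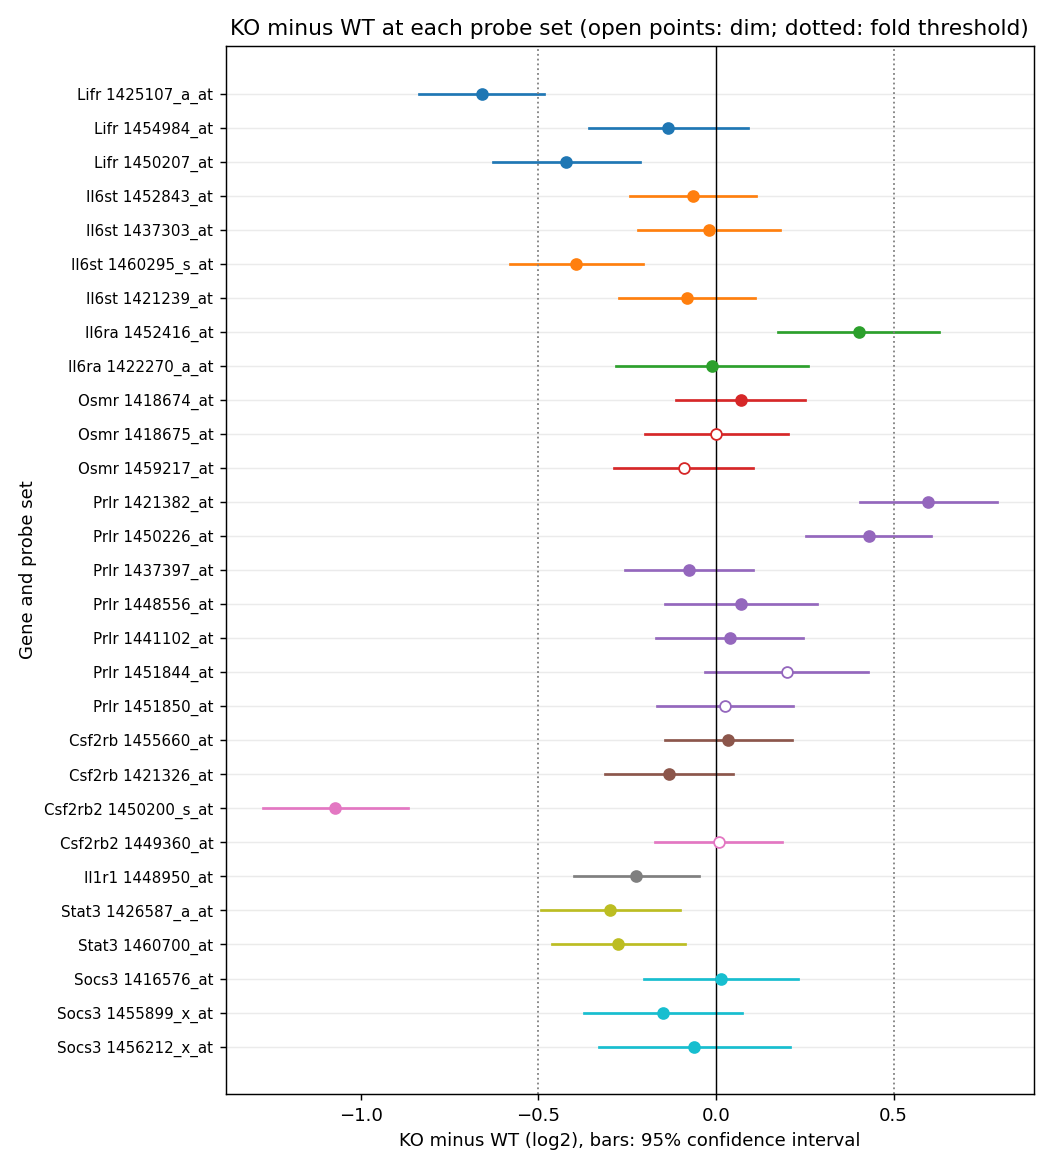
KO minus WT (log2, horizontal axis) at each of the 29 probe sets, coloured by gene, with the 95% confidence interval from the fit over all probe sets as a bar; open points are dim and dotted lines mark 0.5 and -0.5. Csf2rb2 1450200_s_at, Lifr 1425107_a_at and Prlr 1421382_at lie beyond the dotted lines, and the probe sets of Prlr and of Csf2rb2 spread by 0.67 and 1.08.

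Stat3 read lower in KO at both of its probe sets by nearly the same amount. The brighter, 1426587_a_at, gave 10.73 and 10.62 in WT and 10.45 and 10.30 in KO (-0.30, SE 0.09). Stat3 1460700_at gave 9.59 and 9.63 in WT and 9.27 and 9.40 in KO (-0.28, SE 0.08). All KO arrays were below all WT arrays, and neither value passed the thresholds. With the probe sets averaged, the Stat3 difference was -0.29 (SE 0.06), also outside them.

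Socs3, the feedback inhibitor that Stat3 induces, passed the thresholds at none of 3 probe sets. It read 7.44 and 7.20 in WT and 7.38 and 7.30 in KO at 1416576_at (0.01, SE 0.10). At 1455899_x_at it read 7.25 and 7.52 in WT and 7.24 and 7.24 in KO (-0.15, SE 0.10), where KO lay below WT by a margin far smaller than the WT gap of 0.27. At 1456212_x_at it read 6.94 and 6.93 in WT and 7.08 and 6.68 in KO (-0.06, SE 0.12), with KO replicates 0.40 apart. The suffix _x_at marks probes that may bind other transcripts.

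Other genes also had probe sets that differed. Of 126 genes with a probe set past both thresholds and at least 2 above the dim threshold, a second was past both in 33 (26.2%), and all had the same sign in 109 (86.5%). Lifr had 1 such probe set and 1 sign, and Prlr had 1 and both signs.

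**Figure D3:**
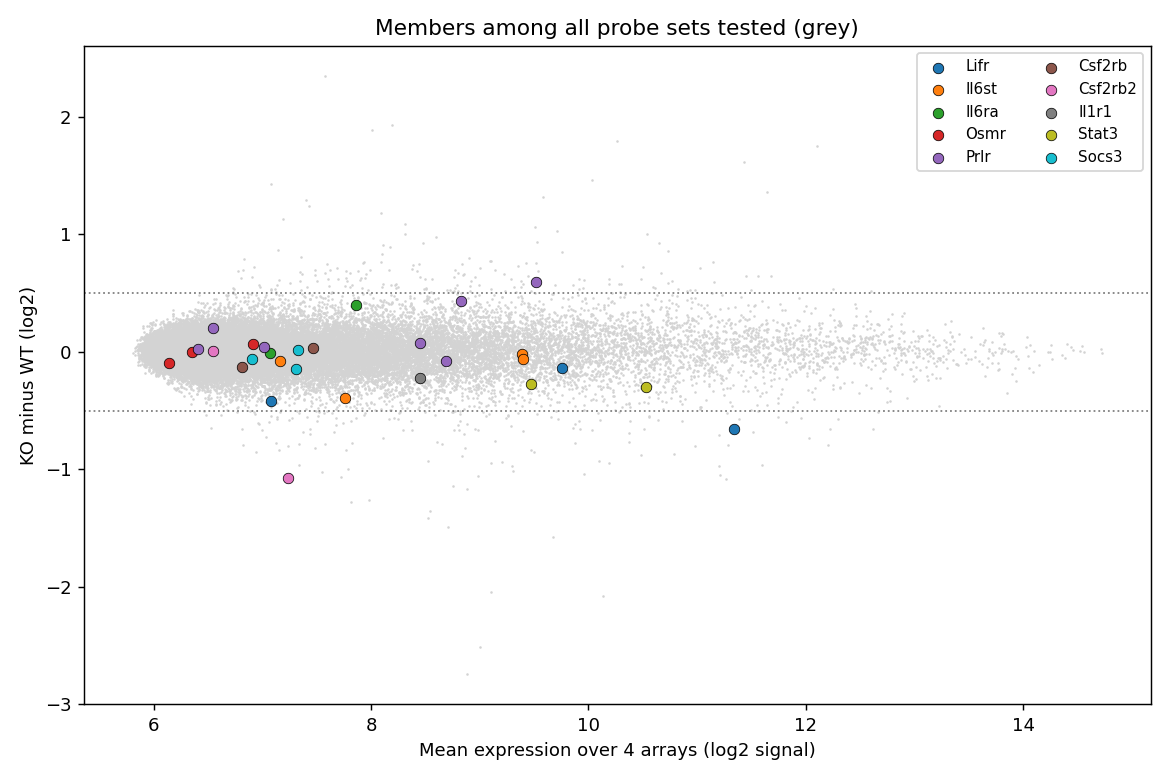
KO minus WT (log2, vertical axis) against mean expression over the 4 arrays (log2 signal, horizontal axis) for all 45037 probe sets in grey, with the members coloured by gene and dotted lines at 0.5 and -0.5. Of the 29 member points 3 lie beyond the dotted lines, 1 above and 2 below.

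The rest of the pathway was read from 9 lists with 132 measured genes, each at its brightest probe set, of which 1 was higher and 7 lower past both thresholds in limma. Over all 19504 named genes read in this way 0.543% were higher and 0.487% lower (1.03% together). KO and WT did not overlap at 30 genes with KO higher and 49 with KO lower, against 24.0% and 19.9% of all named genes (43.9% together), and 15.2% of all named genes had an unadjusted p under 0.05. The lists were drawn up with earlier results known and were not tested as sets.

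Ligands were mostly dim. Of 8 gp130 ligands measured 6 were dim, Il6 among them, and none passed in limma (1 at an unadjusted p under 0.05). The lowest adjusted p belonged to Il11 (-0.26, limma adjusted p = 0.3) and Lif (0.14, limma adjusted p = 0.538), both dim. Of 6 ligands and alpha chains of the beta-common family 4 were dim and none passed in limma (0 at an unadjusted p under 0.05). Il3 read 0.13 (limma adjusted p = 0.558) and Il5 0.12 (limma adjusted p = 0.592), and both were dim. Of 7 further gp130 family receptors none passed in limma (0 at an unadjusted p under 0.05). The granulocyte colony-stimulating factor receptor Csf3r read 7.06 ± 0.14 in WT and 7.24 ± 0.06 in KO (SD, n = 2 each, limma adjusted p = 0.467), and Il27ra differed by -0.13 (limma adjusted p = 0.582).

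Among 14 other receptors of the same structural class 1 fell, Il13ra1, a chain of the Il4 and Il13 receptors. It read 8.55 and 8.48 in WT and 7.95 and 8.05 in KO (-0.52, SE 0.08, limma adjusted p = 0.0196), and its 3 other probe sets gave -0.36, -0.36 and -0.46, all with KO below WT. Of 19 genes of the interleukin-1 family and its signalling none passed in limma (2 at an unadjusted p under 0.05), with Traf6 at 0.19 and Il18 at 0.20 (limma adjusted p = 0.343 and 0.345). Of 10 Jak and Stat genes none passed in limma (2 at an unadjusted p under 0.05), with Stat5a at -0.21 and Stat2 at -0.19 (limma adjusted p = 0.302 and 0.357). Of 17 Socs proteins and other inhibitors none passed both thresholds in limma (5 at an unadjusted p under 0.05). Cish, a Stat5 target that inhibits cytokine receptors, passed the adjusted p alone (-0.47, SE 0.08, limma adjusted p = 0.0259). Socs2, another, read -0.32 (SE 0.10, limma adjusted p = 0.188).

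Liver targets of Il6 and Stat3, the largest list with 45 of the 132 genes, held 5 of the 8 calls. Of 45 measured 5 fell and none rose past both thresholds in limma, against 0.487% and 0.543% of all named genes. The adjusted p was passed by 7, and by 1.75% of all named genes. An unadjusted p under 0.05 was found for 22, against 15.2%. Their median was -0.11 against 0.01 over all named genes. KO lay below WT without overlap at 26 and above it at 10, against 19.9% and 24.0% of all named genes. Of the 45, 42 were above the dim threshold, where 49.7% of all probe sets did not overlap (23.2% lower). A limma fit of only the 20584 probe sets above it had 4206 at an unadjusted p under 0.05. The serum amyloid Saa1 read 11.86 and 11.75 in WT and 10.70 and 10.74 in KO (-1.08, SE 0.08, limma adjusted p = 0.000371). Saa2 (-1.05, SE 0.09), the hepatokine Fgl1 (-0.74, SE 0.08) and the glycoprotein Lrg1 (-0.56, SE 0.09) fell as well, with limma adjusted p of 0.000753, 0.00253 and 0.0199. Saa1 and Saa2 are near-identical, so their probes may not tell them apart. Some genes, picked after their values were seen, complete the range. The pentraxin Apcs fell (-0.50, SE 0.09, limma adjusted p = 0.0328), the metallothionein Mt1 passed the adjusted p alone in the opposite direction (0.44, limma adjusted p = 0.0489), and the siderophore-binding Lcn2 read 0.41 (limma adjusted p = 0.0866).

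Of 12 genes of growth hormone and prolactin signalling 1 rose, the repressor Bcl6, and 1 fell, Igfals, which encodes a carrier subunit for Igf1. In limma 3 passed the adjusted p and 6 had an unadjusted p under 0.05, against 1.75% and 15.2% of all named genes. KO lay below WT without overlap at 7 and above it at 3, against 19.9% and 24.0%. Cish and Socs2, given above, are on this list too. Bcl6 read 7.75 and 7.79 in WT and 8.85 and 8.86 in KO (1.09, SE 0.08, limma adjusted p = 0.000309), and its other probe set gave 0.15 (limma adjusted p = 0.757). Igfals read 10.20 and 10.21 in WT and 9.61 and 9.63 in KO (-0.58, SE 0.08, limma adjusted p = 0.00791).

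**Figure D4:**
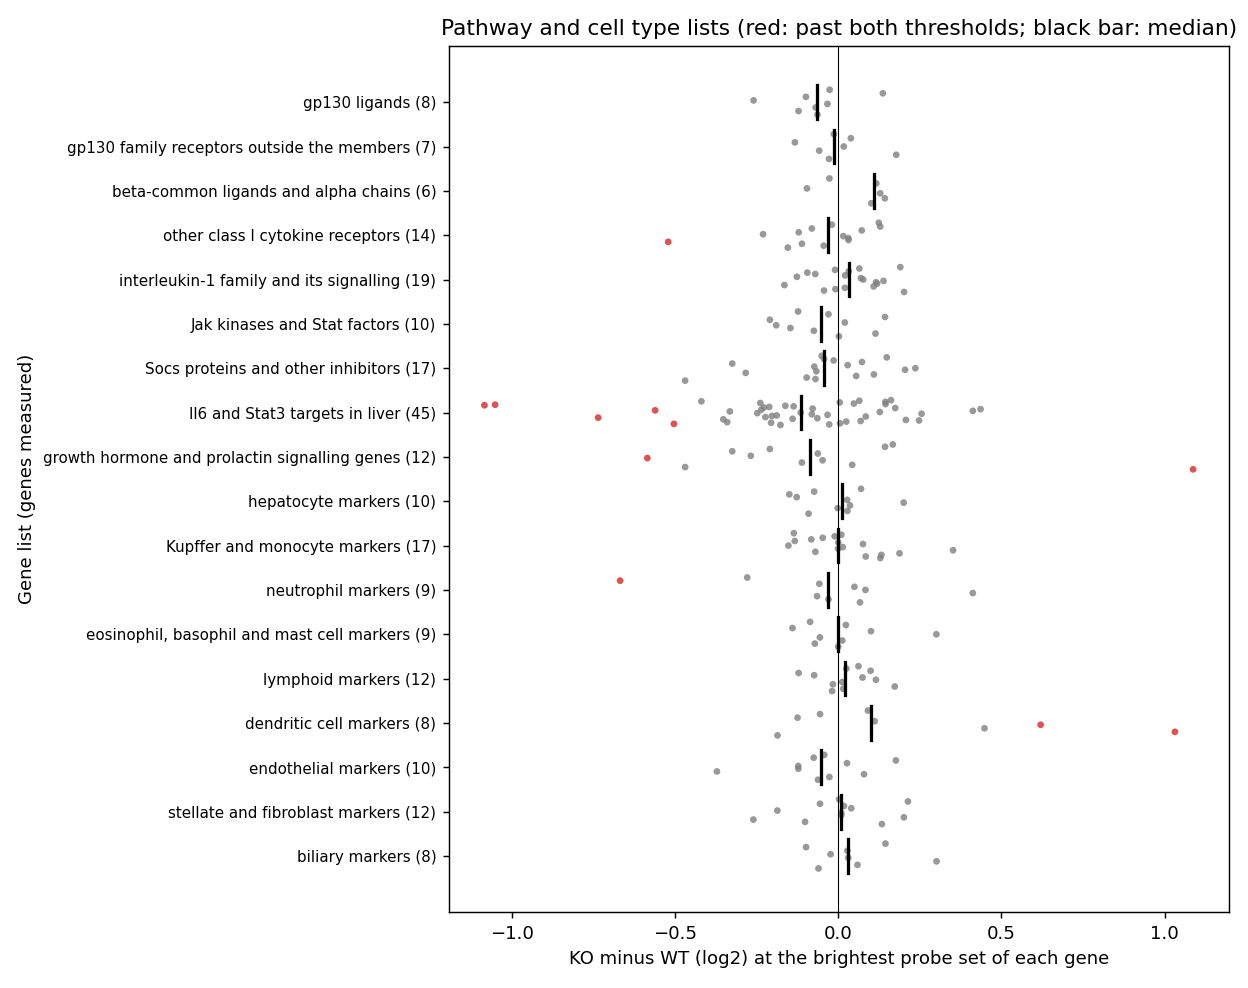
KO minus WT (log2, horizontal axis) for each gene of the 9 pathway lists and 9 cell type marker lists at its brightest probe set, red where past both thresholds, with the list median as a black bar and the number measured in parentheses. The Il6 and Stat3 target list has 5 red points, all below 0.

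Marker lists of liver cell types gave 2 calls upward and 1 downward among 95 genes. Of all named genes 0.543% were called higher and 0.487% lower, and 15.2% had an unadjusted p under 0.05 in limma. Of 17 Kupffer cell and monocyte markers none passed in limma (1 at an unadjusted p under 0.05), and their summed linear signal was 9285 to 9615 in WT and 9467 to 9486 in KO. Of 9 neutrophil markers 1 fell in limma (3 at an unadjusted p under 0.05), S100a8, a calcium-binding protein of neutrophils and monocytes. Its measured difference was -0.67 (SE 0.08, limma adjusted p = 0.00449), with both KO arrays under the dim threshold. The S100a8 WT mean stood 1.51-fold above that threshold, a value given without its sampling error. Its partner S100a9 read -0.28 (limma adjusted p = 0.164), whereas Lcn2, also on this list, read 0.41 with KO above WT and Elane -0.03. Camp, Itgam, Mmp8, Mpo and Ngp were dim, and the sum was 1132 to 1184 in WT and 1146 to 1162 in KO. Of 9 eosinophil, basophil and mast cell markers 8 were dim and none passed in limma (1 at an unadjusted p under 0.05), with a sum of 761 to 782 in WT and 747 to 806 in KO. Of 8 dendritic cell markers 2 rose in limma, with 4 at an unadjusted p under 0.05. The 2 were the class II genes H2-Aa (1.03, SE 0.08, limma adjusted p = 0.000371) and H2-Eb1 (0.62, SE 0.08, limma adjusted p = 0.00586). The sum of the list was 1658 to 1729 in WT and 2529 to 2569 in KO. For its 3 class II genes alone it was 1134 to 1167 in WT and 2018 to 2024 in KO, and for the other 5 genes 523 to 563 in WT and 511 to 545 in KO. Of those 5, Flt3 read -0.19 with KO below WT, Siglech -0.12 and Zbtb46 0.09, and Itgax and Xcr1 were dim. Lymphoid (12), endothelial (10), stellate (12), biliary (8) and hepatocyte (10) markers gave no call in limma, with 0, 1, 4, 1 and 1 at an unadjusted p under 0.05. The part of these cells in the Csf2rb2 value was not tested.

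Lifr, Osmr, Prlr, Csf2rb and Csf2rb2 share chromosome 15, where Osmr and Lifr are neighbours, as are Csf2rb2 and Csf2rb. The study was concerned with gene position, so up to 2 measured genes on either side of each member were read as well. Expression of neighbours does not measure position, which the paper mapped in primary hepatocytes by DamID, a method that marks DNA at the nuclear periphery. The paper lists Lifr as moving to the periphery in KO with lower expression, the latter from these same arrays. None of the 54 probe sets of these 32 genes was past both thresholds in limma (6 at an unadjusted p under 0.05, as were 13% of all probe sets), and with arrays centred on the added controls 9 were. Differences ran from -0.46 to 0.26 with a median of -0.01, and the groups did not overlap at 27, against 41.1% of all probe sets and 49.7% of those above the dim threshold. Next to Csf2rb2, the phagocyte oxidase subunit Ncf4 read -0.31 (limma adjusted p = 0.134). Next to the pair of Osmr and Lifr, Rictor read -0.06 and Egflam 0.13 (limma adjusted p = 0.822 and 0.611). Next to Prlr, the liver enzyme Agxt2 read 0.18 (limma adjusted p = 0.357). Birc5, near Socs3, had the lowest value and passed the adjusted p alone (-0.46, limma adjusted p = 0.047). It read 6.94 and 6.79 in WT and 6.47 and 6.34 in KO, and was dim by its mean through the KO arrays.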

How the data were processed

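Biotin-labelled cRNA from liver RNA of WT and Tm7sf2-KO mice was hybridized to Affymetrix MOE430 v2 arrays, 2 for each genotype. The authors deposited log2 expression, with a single value for each probe set on every array, after quantile normalization. Per the labels' processing notes affy and limma were used. Their versions, the background correction, the probe summarisation and the genome build are all "not given in the sources used here". Array medians were 6.66 or 6.67. Arrays hold no counts, so their number limits the precision. Gene names were read from a deposited table whose comparison columns, a log2 ratio and a limma p-value adjusted by the authors, were not used. After removal of 64 Affymetrix controls, 45037 probe sets were fitted by genotype on all 4 arrays with limma 3.58.1 (R 4.3.3, lmFit, eBayes; two-sided; 2 residual and 7.3 prior degrees of freedom), with Benjamini-Hochberg adjustment over all of them. The procedure was also run on simulated arrays with independent noise and larger changes than those of Lifr and Prlr. That run does not bear on calls of their size. With 2 arrays a group the smallest two-sided p that exact permutation allows is 0.333, so none was run. Members, lists and tests were chosen with earlier results of these data known. The text names all members, up to 4 genes of each pathway list past both thresholds (or the 2 with the lowest adjusted p), up to 3 markers past them, and neighbours. Of the neighbours, those printed were picked after their values were seen, and so were the remaining neutrophil and dendritic cell markers. RefSeq GRCm38.p6 gave gene order and upstream windows. Alternatives were another normalization or centring, limma-trend, robust eBayes, a filter on dim probe sets, the replicate number as a block, each array left out, the mean of a gene's probe sets, and no fold threshold.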

Additional observations from a re-analysis of the deposited data

How the results depend on the processing

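A second quantile normalization, median centring, limma-trend, robust eBayes, a filter on dim probe sets and the replicate block each kept the same 3 member probe sets past both thresholds, with 305 to 330 probe sets past them in all against 318. The labels tie the replicate numbers to no litter or batch, and same-numbered arrays did not deviate together (r = -0.04 across probe sets). With the replicate block 305 probe sets, 3 of members and 7 rather than 8 pathway genes were past both thresholds, and Tm7sf2 was at -2.75.

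Without any 1 array (WT replicate 1 or 2, KO replicate 1 or 2) limma called 0 probe sets, 0 of members and 0 pathway genes, while 3326 to 4217 probe sets had an unadjusted p under 0.05 and Tm7sf2 lay between -2.79 and -2.70 (limma adjusted p = 0.518 to 0.662). The lone array of a group is then assumed to vary like the other group. The measured differences lay between -1.17 and -0.97 for Csf2rb2 1450200_s_at, -0.70 and -0.63 for Lifr 1425107_a_at, and 0.53 and 0.67 for Prlr 1421382_at.

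Centring on 45 added control probe sets, which read 0.36 higher in KO, moved the median of all probe sets from 0.01 to -0.36. It gave 5539 past both thresholds (26 higher and 5513 lower, against 171 and 147), 8 of members, all lower, 36 pathway genes and 9 neighbouring probe sets against 0. Prlr 1421382_at was then 0.23 and not past them. With the mean of a gene's probe sets 1 member passed, Csf2rb2 (-0.53), while Lifr read -0.41 and Prlr 0.18. Without the fold threshold 564 probe sets passed, 4 of them of members.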
